A study of Mus musculus with 12 samples.

Results

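The genes described here are those of the deposited hippocampus table whose 3 *A. muciniphila*-treated and 3 control libraries did not overlap. A gene was chosen when its lowest value in the treated (Akk) libraries lay above its highest value in the control (Ctrl) libraries, or when its highest Akk value lay below its lowest Ctrl value. Of 284 genes in the table, 45 met this rule in either direction (15.8%), with 25 higher in the Akk group (8.80%) and 20 lower (7.04%). The table is itself a selection of genes by a rule that is not stated, and the paper reports more genes than this to differ in the hippocampus. If the same Akk against Ctrl contrast selected the table, these and later shares of it are no neutral baseline. The 10 genes set aside by name, which are mostly cholinergic and innate immune genes, held 6 of these 45, and the other 39 genes are the members, 20 higher and 19 lower in the Akk group. The members were thus chosen by their hippocampal FPKM values, so their levels and differences are a description and were not tested in the hippocampus.

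Hippocampus and blood were taken from C57BL/6 mice aged 15 months, with 3 mice in each group and 1 library per mouse and tissue. The labels call the controls normal and describe the Akk mice as treated with a membrane protein of *A. muciniphila*, a mucin-degrading gut bacterium, with durations of 8 weeks and 6 weeks given in different fields. The study's methods describe instead gavage of the bacterium, or of its glycerin-containing PBS vehicle, to mice that first received antibiotics, and state that the sequenced RNA came from mice in which colonization had not succeeded. Values are FPKM, fragments scaled to transcript length and library size, which the authors deposited with 2 decimals, and the number of reads behind them is unknown. Differences are given as the Akk mean minus the Ctrl mean of log2(FPKM + 0.1), a scale that understates the change of low genes.

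The hippocampus encodes spatial and episodic memory, and its tissue holds pyramidal and granule neurons, interneurons, glia, vessels and resident immune cells. Choroid plexus, meninges and septal or subcortical tissue lie next to it and carry their own gene programmes. Bulk RNA averages over all of these, so a change in the number of cells of a type and a change in RNA per cell cannot be told apart.

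Most members were low. Averaged over the 6 hippocampus libraries, FPKM was below 1 for 33 of 39 members (84.6%), against 222 of all 284 genes (78.2%), and the averages ran from 0.03 to 3.18 among the higher and from 0.0683 to 2.36 (Capn11) among the lower members. The median difference was 1.21 on the log2 scale for the 20 higher members and -0.83 for the 19 lower members, against -0.11 for all genes of the table. A difference of at least 1.5-fold on this scale was reached by 19 higher and 15 lower members, beside 19.7% and 19.0% of the whole table in the same directions. Without the 4 members listed at 0 in every library of a group, the medians were 1.21 and -0.80, and 16 higher and 14 lower members reached that fold. The contrast that chose the members fixes these directions. On chromosome 2 lie 6 of the 20 higher members (Gm14434, Gm4724, Prdm12, Lmx1b, Elf5 and Emilin3), beside 23 of the 280 genes of the table with RefSeq coordinates. It held the most higher members of any chromosome and was singled out after the count, which was not tested. Gm14434 and Gm4724 are near-identical copies, and the next closest of the 6, Prdm12 and Lmx1b, lie 1905.2 kb apart.

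The distance between the groups was small for many members. The gap, the step in FPKM from the outermost library of one group to the nearest of the other, exceeded the range within either group for 4 higher members (Gm14434, Gm31309 and Chaf1b among them) and 2 lower members (Akr1cl and Tnfsfm13). It was 0.05 FPKM or less for 9 higher and 11 lower members. For Pomc, Elf5, Hsd3b1, Gm10354, Myoz3 and Haspin it was 0.01 FPKM, the last decimal deposited. Just outside the rule lay Nr1h5, a nuclear receptor gene, with 0.12, 0.06 and 0.20 FPKM in Ctrl 1, 2 and 3 and 0.21, 0.21 and 0.20 FPKM in Akk 1, 2 and 3, so that Ctrl 3 and Akk 3 tied. Mc3r, a receptor for melanocortin peptides, missed it by 0.01 FPKM, with 0.37, 0.08 and 0.02 FPKM in the Ctrl libraries and 0.36, 0.60 and 0.50 FPKM in the Akk libraries. On the lower side Mgl2, a macrophage lectin, missed it by the same step, with 0.60, 0.76 and 0.41 FPKM in the Ctrl libraries against 0.42, 0.30 and 0.36 FPKM.

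The largest differences belonged to Gm14434 (NCBI gene 668039) and Gm4724 (NCBI gene 100043915), predicted zinc finger genes from a dense cluster on distal chromosome 2. Zinc finger proteins of this kind bind DNA, and such clusters consist of many young copies. Gm14434 lies at chr2:176470369-176486853 and Gm4724 at chr2:175418037-175704126 in RefSeq GRCm38.p6, and 766.2 kb separate them. Part of their promoters is shown because the 300 bases around a start site in RefSeq are the same at both genes (300 of 300 identical). Annotated starts differ by transcript, so the 146 bases farthest upstream are given. They lie outside the RefSeq interval of Gm14434 but inside that of Gm4724. The stretches are those of Gm14434 (chr2:176486854-176486999, minus strand) and Gm4724 (chr2:175435882-175436027, minus strand), with the CCAAT box (ATTGG on this strand) in capitals.
Gm14434: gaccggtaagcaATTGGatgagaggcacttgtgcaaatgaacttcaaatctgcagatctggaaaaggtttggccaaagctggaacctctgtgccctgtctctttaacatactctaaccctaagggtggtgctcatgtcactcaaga
Gm4724: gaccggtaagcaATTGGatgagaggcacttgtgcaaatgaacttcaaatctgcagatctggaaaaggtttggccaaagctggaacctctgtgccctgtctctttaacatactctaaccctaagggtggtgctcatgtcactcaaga
Gm14308 and Gm2026 hold the same 300 bases. A CCAAT box on either strand (CCAAT or ATTGG) was present in the first 250 bases of 33.8% of 32851 RefSeq mouse promoters and of 14 of the 37 promoters listed for members, a share near that of all promoters.

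Gm14434 had 0, 0.02 and 0 FPKM in Ctrl 1, 2 and 3 and 8.11, 4.31 and 5.90 FPKM in Akk 1, 2 and 3, a log2 difference of 5.82. Gm4724 had 0.02, 0.85 and 0 FPKM in the Ctrl libraries and 3.72, 9.85 and 4.64 FPKM in the Akk libraries, a log2 difference of 4.65. All 3 Akk libraries were far above all 3 Ctrl libraries for both genes, and the order of the Akk libraries was not shared, since Akk 1 was the highest for Gm14434 and Akk 2 for Gm4724. The longest GENCODE transcript of Gm14434 (1497 bases) aligned over its whole length at 100% identity to Gm4724 and also to Gm14308, Gm2026, Gm2007, Gm11007 and Gm4631. Reads from it cannot be placed on one of these genes by sequence, and the split of FPKM between the pair is uncertain. Summed over the pair, the values were 0.02, 0.87 and 0 FPKM in the Ctrl libraries and 11.83, 14.16 and 10.54 FPKM in the Akk libraries. Since the rule chose both genes in the same direction, their sum had to separate the groups, and it leaves out the other near-identical copies. Of 46 genes on the list of this zinc finger family, these were the 2 listed in the hippocampus table. Where the other copies stood in the hippocampus was not analysed here.

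**Figure D1:**
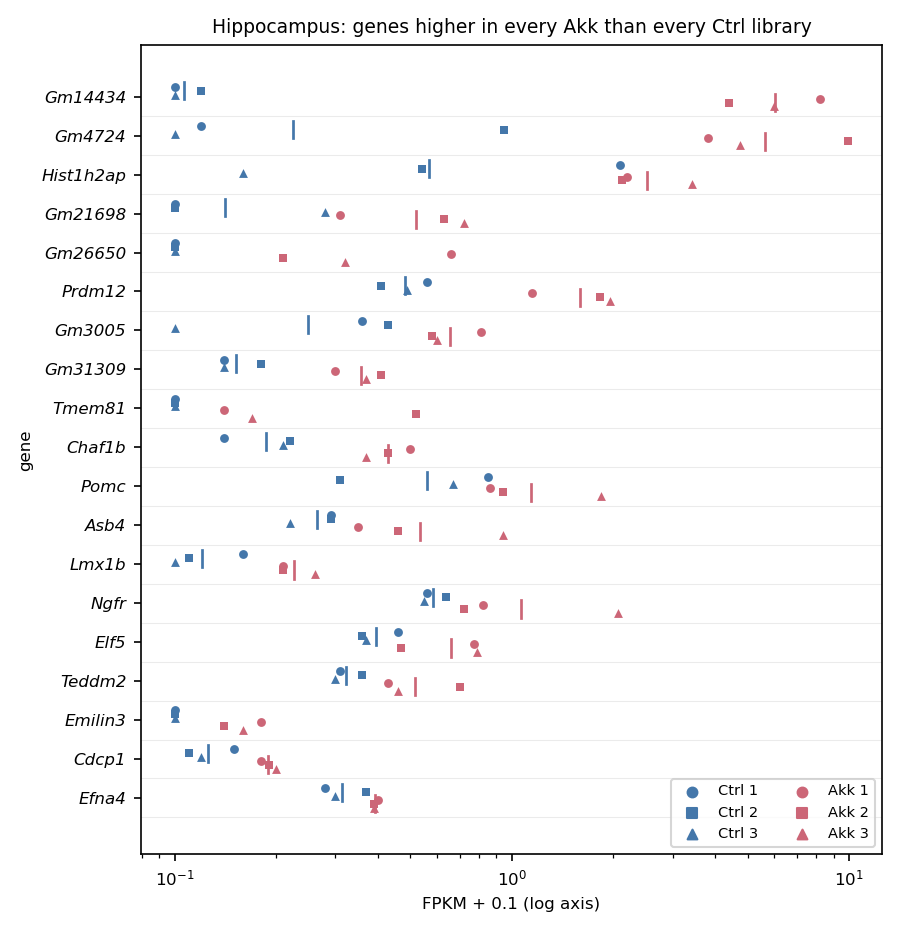
FPKM + 0.1 on a log axis for 19 of the 20 members higher in the Akk group, with 1 point per hippocampus library (blue, Ctrl; red, Akk; circle, square and triangle for mice 1, 2 and 3) and a vertical tick at the group mean on the log scale, left out where a group is listed at 0. Gm14434 spans from 0 to 8.11 FPKM, whereas Pomc, Elf5 and Efna4 have groups 0.02 FPKM or less apart.

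The other higher members are grouped by known role after they were chosen, with no count of such roles in the whole table. Among them were genes known from neurons or from axon guidance, several of them from brain regions other than the hippocampus. Prdm12 (NCBI gene 381359), a transcriptional regulator of sensory neuron development that is also found in hypothalamic Pomc neurons, had 0.46, 0.31 and 0.39 FPKM in the Ctrl libraries and 1.05, 1.72 and 1.85 FPKM in the Akk libraries. The means were 0.387 ± 0.0751 FPKM and 1.54 ± 0.429 FPKM (SD, n = 3 each), with a log2 difference of 1.73. Akk 1 was the lowest and Akk 3 the highest of the Akk libraries, and all 3 lay well above the Ctrl libraries.

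Pomc (NCBI gene 18976), the precursor of the melanocortins, corticotropin and beta-endorphin, had 0.75, 0.21 and 0.57 FPKM in the Ctrl libraries and 0.76, 0.84 and 1.74 FPKM in the Akk libraries. Akk 1 exceeded Ctrl 1 by 0.01 FPKM, and the log2 difference of 1.02 was 0.68 without Akk 3 and 0.60 without Ctrl 2. Of 13 genes of the melanocortin system, the table listed Pomc and Mc3r. Ngfr (NCBI gene 18053), the low-affinity neurotrophin receptor carried by cholinergic neurons of the basal forebrain, had 0.46, 0.54 and 0.45 FPKM in the Ctrl libraries and 0.72, 0.62 and 1.96 FPKM in the Akk libraries. Its log2 difference of 0.88 was 0.40 without Akk 3. Asb4 (NCBI gene 65255), a subunit of ubiquitin ligases that is prominent in the hypothalamus, had 0.19, 0.19 and 0.12 FPKM in the Ctrl libraries and 0.25, 0.36 and 0.84 FPKM in the Akk libraries. Its log2 difference of 1.01 was 0.60 without Akk 3. For all 3 of these genes Akk 3 was the highest library, and the other Akk libraries lay close to the Ctrl libraries. Lmx1b (NCBI gene 16917), a homeodomain factor of midbrain dopamine and hindbrain serotonin neurons, had 0.06, 0.01 and 0 FPKM in the Ctrl libraries and 0.11, 0.11 and 0.16 FPKM in the Akk libraries, levels at which a few hundredths of an FPKM separate the groups. Efna4, an ephrin ligand of axon guidance, had the smallest difference of the 20 (log2 difference 0.32), with 0.18 to 0.27 FPKM in the Ctrl libraries and 0.29 to 0.30 FPKM in the Akk libraries.

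Marker genes of other tissues and cell types differed between single libraries or between the groups. Among 10 cholinergic neuron markers 4 were listed, all among the genes set aside by name (Chat, Isl1, Slc10a4 and Ecel1). Their summed level was 1.89, 1.49 and 1.38 FPKM in the Ctrl libraries and 5.57, 9.04 and 12.64 FPKM in the Akk libraries. All 4 were higher in the Akk group without overlap, beside 8.80% of all genes of the table. The markers that were not listed could not be seen, so this does not describe the whole list. Ecel1 made up most of the sum in the Akk libraries, with 4.12, 6.21 and 8.48 FPKM, whereas Chat, which encodes the enzyme that makes acetylcholine, had 0, 0.05 and 0.02 FPKM in the Ctrl libraries and 0.10, 0.13 and 0.70 FPKM in the Akk libraries. Among 18 pituitary markers 3 were listed (Prl, Gh and Pomc), with a sum of 3.46, 4.21 and 1.46 FPKM in the Ctrl libraries and 1.55, 7.60 and 2262.34 FPKM in the Akk libraries. Prl, which encodes prolactin, made up 2257.54 FPKM of the sum in Akk 3, the library with the highest value for 10 of the 20 higher members. The choroid plexus list, with 20 of 28 genes listed, summed to 7035.08, 129.70 and 113.67 FPKM in the Ctrl libraries and to 100.54, 2616.33 and 121.94 FPKM in the Akk libraries, and 0 of its genes separated the groups. Of 13 markers of meninges and fibroblasts, 2 were listed, with a sum between 22.29 and 150.15 FPKM in the Ctrl and between 19.96 and 84.98 FPKM in the Akk libraries. Of 12 markers of hypothalamus, thalamus and habenula, 1 was listed (Mc3r), and its groups overlapped. The part of these tissues in the members' values was not tested. None of 12 markers of hippocampal neurons was listed, and neither were any of 8 ependymal or 8 red cell markers, so the tissue label could not be checked against this table.

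**Figure D2:**
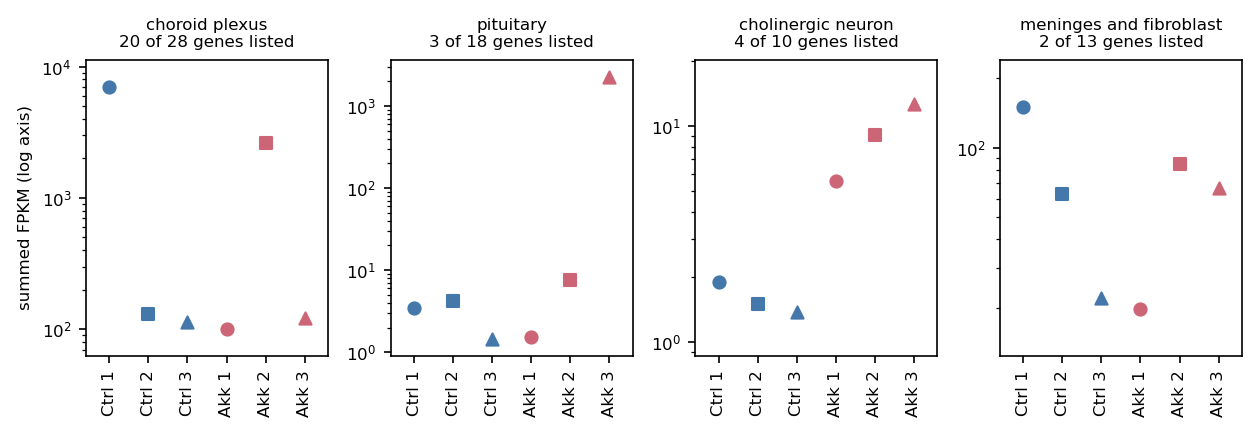
Summed FPKM (log axes, each panel with its own range) of the listed marker genes in each hippocampus library, for choroid plexus, pituitary, cholinergic neurons, and meninges and fibroblasts. The cholinergic sum, most of it Ecel1 in the Akk libraries, lies at 1.38 to 1.89 FPKM in the Ctrl and 5.57 to 12.64 FPKM in the Akk libraries, the pituitary sum stands out in Akk 3, and the choroid plexus sum stands out in Ctrl 1 and Akk 2.

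Chaf1b and Hist1h2ap, with roles in chromatin, were among the higher members, whereas the histone kinase gene Haspin was among the lower members. Chaf1b (NCBI gene 110749), a subunit of the chaperone that deposits histones behind the replication fork, had 0.04, 0.12 and 0.11 FPKM in the Ctrl libraries and 0.40, 0.33 and 0.27 FPKM in the Akk libraries. The means were 0.0900 ± 0.0436 FPKM and 0.333 ± 0.0651 FPKM (SD, n = 3 each), and the log2 difference was 1.21. Hist1h2ap (NCBI gene 319171), one of the clustered histone H2A genes, had 2.00, 0.44 and 0.06 FPKM in the Ctrl libraries and 2.09, 2.02 and 3.32 FPKM in the Akk libraries. Its Ctrl libraries ran over a wider range than its Akk libraries, and Ctrl 1 came within 0.02 FPKM of Akk 2, and the log2 difference of 2.15 was 1.24 without Ctrl 3, the lowest library. Its transcript is at least 95% identical to those of 12 other genes, all of the H2A cluster. As background, most histone transcripts lack a poly(A) tail, and the libraries were made with oligo(dT) selection.

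Epithelial and matrix genes among the higher members were low in all libraries. Elf5, an ETS factor of secretory epithelium, lay between 0.26 and 0.36 FPKM in the Ctrl and between 0.37 and 0.69 FPKM in the Akk libraries. Cdcp1, a transmembrane glycoprotein of epithelial cells, lay between 0.01 and 0.05 FPKM in the Ctrl and between 0.08 and 0.10 FPKM in the Akk libraries. Emilin3, an extracellular matrix gene, was listed at 0 in all 3 Ctrl libraries and at 0.08, 0.04 and 0.06 FPKM in Akk 1, 2 and 3. No fold is given for this gene or for the other 3 members listed at 0 in a whole group.

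Of the remaining higher members, 4 were predicted genes and 2 were transmembrane genes of little known function. Gm31309 (NCBI gene 102633498) had 0.04, 0.08 and 0.04 FPKM in the Ctrl libraries and 0.20, 0.31 and 0.27 FPKM in the Akk libraries, with a gap larger than the range of either group. Tmem81 was listed at 0 in all Ctrl libraries and at 0.04, 0.42 and 0.07 FPKM in the Akk libraries. Teddm2, which overlaps Glul and other genes, lay between 0.20 and 0.26 FPKM in the Ctrl and between 0.33 and 0.60 FPKM in the Akk libraries. The other 3 predicted genes belong to multicopy families. Gm26650 was listed at 0 in all Ctrl libraries and at 0.56, 0.11 and 0.22 FPKM in the Akk libraries, and 9 genes have near-identical transcripts. Gm21698 had 0, 0 and 0.18 FPKM in the Ctrl libraries and 0.21, 0.53 and 0.62 FPKM in the Akk libraries, a log2 difference of 1.88. Gm3005 had 0.26, 0.33 and 0 FPKM in the Ctrl libraries and 0.71, 0.48 and 0.50 FPKM in the Akk libraries, a log2 difference of 1.40 that was 0.74 without Ctrl 3.

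A near-identical gene (at least 95% identity over at least 50% of the transcript) was found for 9 of the 38 members with a GENCODE transcript, against 22.9% of 262 genes of the table. For 3 members besides the zinc finger pair, the table lists such a gene that is not a member, and in each case the sum overlapped between the groups. Gm2274 (NCBI gene 100039503), a transcribed pseudogene lower in the Akk group, had 1.84, 2.60 and 1.70 FPKM in the Ctrl libraries and 1.51, 1.32 and 0 FPKM in the Akk libraries. Gm2260, identical to it over 98.5% of its transcript, had 2.01, 0 and 0.10 FPKM in the Ctrl libraries and 1.51, 1.32 and 1.99 FPKM in the Akk libraries. The 2 genes thus carried equal values in Akk 1 and Akk 2, whereas in Ctrl 2 Gm2260 and in Akk 3 Gm2274 was listed at 0 and the other was high. Their sum was 3.85, 2.60 and 1.80 FPKM in the Ctrl libraries and 3.02, 2.64 and 1.99 FPKM in the Akk libraries. The log2 difference of Gm2274 alone was -1.79, and it was -0.48 without Akk 3. Speer4a, 96.4% identical to Gm21698, went the other way, with 0.22, 0.06 and 0.30 FPKM in the Ctrl libraries and 0, 0 and 0.06 FPKM in the Akk libraries. Gm21698, 5031410I06Rik and Speer4a together came to 0.61, 0.25 and 0.56 FPKM in the Ctrl libraries and to 0.41, 0.63 and 0.68 FPKM in the Akk libraries. Gm3005 and Gm3500, 97.9% identical, came to 0.91, 2.21 and 0.42 FPKM in the Ctrl libraries and to 2.56, 1.07 and 2.14 FPKM in the Akk libraries.

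**Figure D3:**
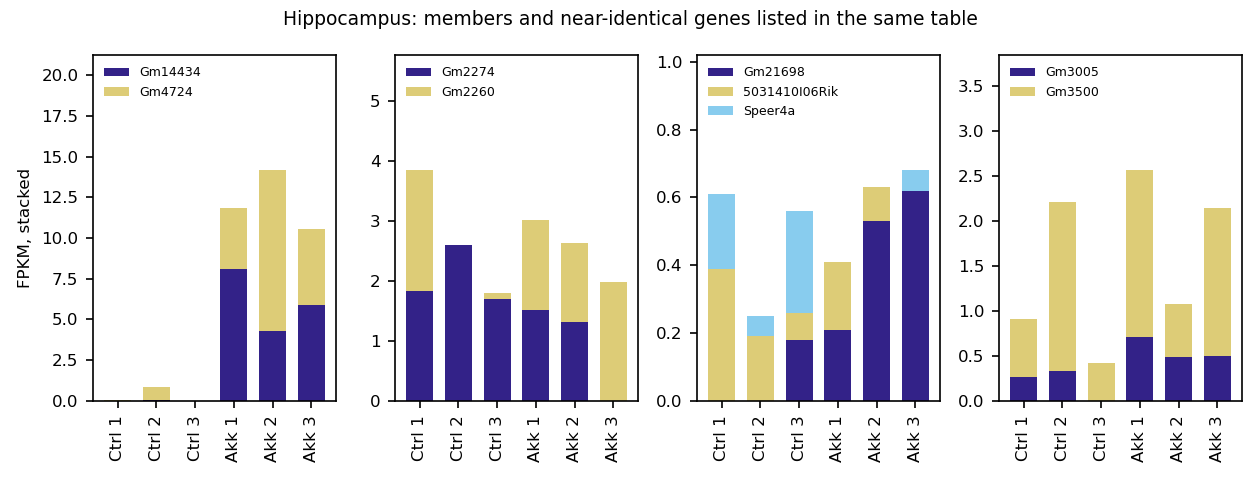
FPKM of members and of near-identical genes listed in the same table, stacked within each hippocampus library, with 1 panel per family and its own scale from 0. Both genes of the zinc finger panel are members, so that their sum had to separate the groups (at most 0.87 against at least 10.54 FPKM), whereas each of the other panels also holds a gene that is no member, and there the stacked heights overlap.

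The lower members are grouped here by known role after they were chosen, with no count of such roles in the whole table, beginning with enzymes of steroid or lipid metabolism. Dgat2l6 (NCBI gene 668257), of the diacylglycerol acyltransferase family, had 0.96, 0.97 and 0.65 FPKM in the Ctrl libraries and 0.39, 0.29 and 0.41 FPKM in the Akk libraries. The means were 0.860 ± 0.182 FPKM and 0.363 ± 0.0643 FPKM (SD, n = 3 each), and the log2 difference was -1.04. Gdpd3 (NCBI gene 68616), a lysophospholipase of the glycerophosphodiesterase family, had 1.33, 1.01 and 1.42 FPKM in the Ctrl libraries and 0.98, 0.63 and 0.56 FPKM in the Akk libraries. Both were among the better expressed lower members, with Ctrl 2 and Akk 1 within 0.03 FPKM of each other for Gdpd3. Acsbg2 (NCBI gene 328845), which activates fatty acids to acyl-CoA, had 0.18, 0.40 and 0.25 FPKM in the Ctrl libraries and 0.16, 0.10 and 0.06 FPKM in the Akk libraries. Akr1cl (NCBI gene 70861), of the aldo-keto reductase family, was at 0.21, 0.17 and 0.15 FPKM in Ctrl 1, 2 and 3 and was listed at 0 in all Akk libraries. It was the 1 gene listed of 17 in that family.

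Hsd3b1 (NCBI gene 15492) and Hsd3b6 (NCBI gene 15497) encode 3-beta-hydroxysteroid dehydrogenases, which convert delta-5 to delta-4 steroids in the adrenal gland and gonads, and lie 27.9 kb apart on chromosome 3. Hsd3b1 had 0.09, 0.14 and 0.12 FPKM in the Ctrl libraries and 0.08, 0 and 0 FPKM in the Akk libraries. Hsd3b6 lay between 0.14 and 0.22 FPKM in the Ctrl and between 0.05 and 0.12 FPKM in the Akk libraries. Another gene of the family, Hsd3b2, is no member, with 0.08, 0.12 and 0.17 FPKM in the Ctrl libraries and 0.18, 0.06 and 0.07 FPKM in the Akk libraries. Their promoters are shown because the genes are neighbours of one family and both are members. The 250 bases before the start site of Hsd3b1 (chr3:98859795-98860044, minus strand) and Hsd3b6 (chr3:98814444-98814693, minus strand) are given with CCAAT boxes in capitals, of which Hsd3b1 has 1 at its end.
Hsd3b1: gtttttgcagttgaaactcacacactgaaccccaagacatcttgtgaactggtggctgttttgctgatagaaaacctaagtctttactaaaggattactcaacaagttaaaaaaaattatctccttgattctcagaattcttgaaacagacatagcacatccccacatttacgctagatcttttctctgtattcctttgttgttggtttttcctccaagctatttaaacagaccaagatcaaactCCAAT
Hsd3b6: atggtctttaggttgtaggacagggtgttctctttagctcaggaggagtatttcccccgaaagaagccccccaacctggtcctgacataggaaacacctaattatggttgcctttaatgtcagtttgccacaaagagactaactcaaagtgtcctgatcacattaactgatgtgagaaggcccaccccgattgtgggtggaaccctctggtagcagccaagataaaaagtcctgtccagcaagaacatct
The nuclear receptor gene Nr5a2, a regulator of steroid and bile acid genes, lay between 0.09 and 0.17 FPKM in the Ctrl and between 0.03 and 0.07 FPKM in the Akk libraries. Gata5, a factor of endoderm and heart that has an antisense gene, lay between 0.36 and 0.38 FPKM in the Ctrl and between 0.22 and 0.32 FPKM in the Akk libraries. Its log2 difference of -0.41 was the smallest among the lower members.

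**Figure D4:**
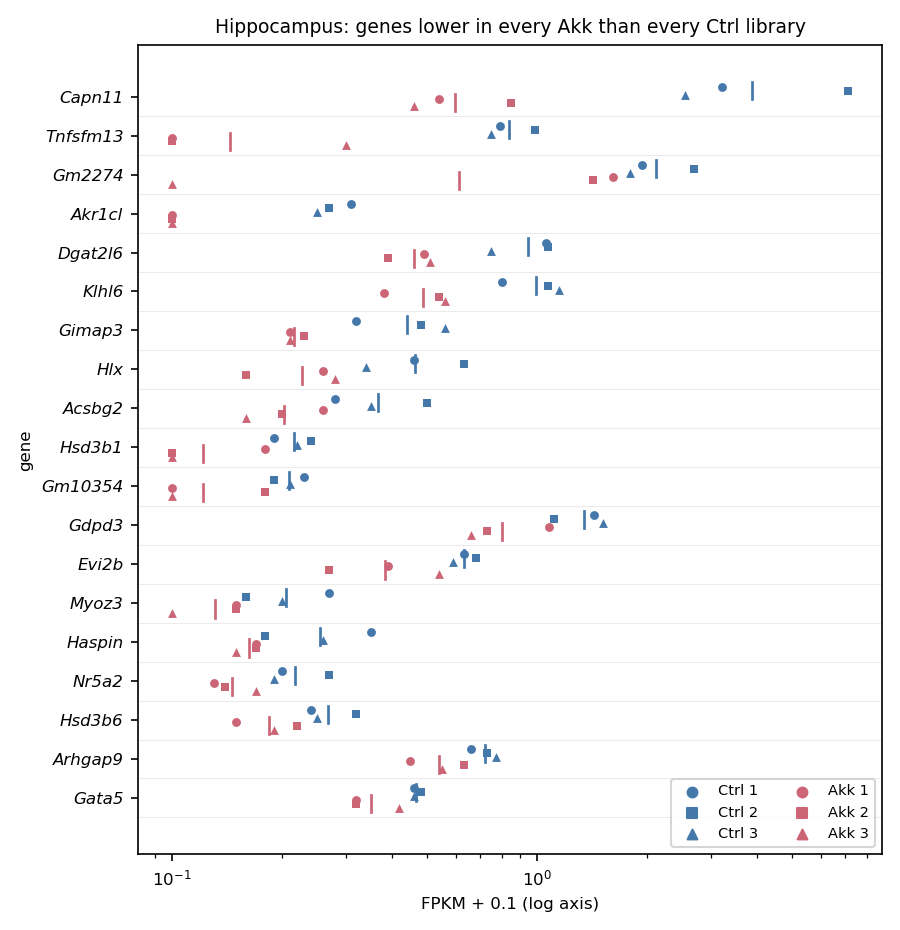
FPKM + 0.1 on a log axis for the 19 members lower in the Akk group, drawn as for the higher members (blue, Ctrl; red, Akk; symbols for mice 1, 2 and 3; tick at the group mean on the log scale). Capn11 spans from 0.36 to 7.02 FPKM, and 17 of the 19 members have a mean below 1 FPKM.

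Other lower members are known from blood or immune cells, a grouping also made after they were chosen. Klhl6 (NCBI gene 239743), a ubiquitin ligase adaptor of B cells, had 0.70, 0.97 and 1.05 FPKM in the Ctrl libraries and 0.28, 0.44 and 0.46 FPKM in the Akk libraries. The means were 0.907 ± 0.183 FPKM and 0.393 ± 0.0987 FPKM (SD, n = 3 each), and the log2 difference was -1.03. Gimap3 (NCBI gene 83408), a GTPase of lymphocytes, had 0.22, 0.38 and 0.46 FPKM in the Ctrl libraries and 0.11, 0.13 and 0.11 FPKM in the Akk libraries, also a log2 difference of -1.03. For both genes the lowest Ctrl library was Ctrl 1. Hlx (NCBI gene 15284), a homeobox factor of T helper cells and of the developing gut, had 0.36, 0.53 and 0.24 FPKM in the Ctrl libraries and 0.16, 0.06 and 0.18 FPKM in the Akk libraries. Evi2b (NCBI gene 216984), a membrane protein of granulocytes and lymphocytes, had 0.53, 0.58 and 0.49 FPKM in the Ctrl libraries and 0.29, 0.17 and 0.44 FPKM in the Akk libraries. It overlaps Nf1 and has a near-identical annotated gene, Evi2, so its reads may be split, and whether counting used the strand is not given in the sources used here. Arhgap9, a GTPase-activating protein of leukocytes, lay between 0.56 and 0.67 FPKM in the Ctrl and between 0.35 and 0.53 FPKM in the Akk libraries.

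Tnfsfm13 (NCBI gene 619441) is the read-through transcript of Tnfsf12 and Tnfsf13, which encode the cytokines TWEAK and APRIL. It had 0.69, 0.89 and 0.65 FPKM in the Ctrl libraries and 0, 0 and 0.20 FPKM in the Akk libraries, a log2 difference of -2.54, and its groups lay 0.45 FPKM apart. The gene overlaps both on the same strand, and its value depends on how reads were divided among the 3. Beside these genes, the microglia list had 1 of 16 genes in the table, Adora3 at 0.57, 0.66 and 0.63 FPKM in the Ctrl libraries and 0.46, 0.28 and 0.60 FPKM in the Akk libraries, and the neutrophil list had 1 of 8, S100a8, with groups that overlapped. No red cell marker was listed, so the amount of blood left in the tissue was not measured by these values.

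Capn11 (NCBI gene 268958), a calcium-dependent protease known mainly from testis, had the largest difference of the lower members. It had 3.12, 7.02 and 2.44 FPKM in the Ctrl libraries and 0.44, 0.75 and 0.36 FPKM in the Akk libraries, with means of 4.19 ± 2.47 FPKM and 0.517 ± 0.206 FPKM (SD, n = 3 each) and a log2 difference of -2.70. The groups lay 1.69 FPKM apart, less than the range of the Ctrl libraries (4.58 FPKM), which varied more than the Akk libraries. Myoz3, a protein of the muscle Z-disc, had 0.17, 0.06 and 0.10 FPKM in the Ctrl libraries and 0.05, 0.05 and 0 FPKM in the Akk libraries. Haspin, a mitotic histone kinase whose gene overlaps Itgae on the opposite strand, had 0.25, 0.08 and 0.16 FPKM in the Ctrl libraries and 0.07, 0.07 and 0.05 FPKM in the Akk libraries. Gm10354, which has 7 near-identical genes, had 0.13, 0.09 and 0.11 FPKM in the Ctrl libraries and 0, 0.08 and 0 FPKM in the Akk libraries. These 3 genes each had groups 0.01 FPKM apart. Ctrl 2 was the highest library for 11 of the 19 lower members.

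The separation was also described after rescaling. The median FPKM of the table ran from 0.175 (Ctrl 3) to 0.370 (Ctrl 1) in the Ctrl group and from 0.220 to 0.390 in the Akk group. These are the values that chose the members, so what follows is a description and no test. The medians are those of 284 selected genes and may not measure the scale of the libraries. With each library centred on its median, 11 of the 20 higher and 8 of the 19 lower members still separated the groups, and with quantile normalization 14 and 8 did. Gm14434, Gm4724, Prdm12, Chaf1b, Asb4, Lmx1b, Teddm2, Tmem81, Gm26650 and Gm31309 were among those that stayed separate under both, as did Capn11, Tnfsfm13, Akr1cl, Dgat2l6, Hlx and Gm10354. Pomc, Ngfr, Elf5, Efna4, Gm3005 and Gm21698 overlapped under both, as did Hsd3b1, Hsd3b6, Nr5a2, Gata5, Acsbg2, Gdpd3, Evi2b, Arhgap9 and Gm2274. Centring moved the median log2 difference of all genes from -0.11 to -0.21.

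The blood libraries of the same mice were not used to choose the members, and the members were compared there. The blood table is itself a selection, with as many genes as the paper reports to differ in blood. If it is that list, its genes were selected by the same Akk against Ctrl contrast. The limma fit below is then no independent test, since its variance trend and adjusted p rest on genes so selected. Of the 39 members, 8 were among the 8003 genes of the blood table (Gm14434, Gm4724 and Hist1h2ap of the higher, and Klhl6, Evi2b, Arhgap9, Hlx and Capn11 of the lower members), and the other 31 were not. In blood, none of the 8 kept the groups apart, where 15.4% of the blood table was lower without overlap and 0.175% was higher. In a limma fit of the whole blood table with Benjamini-Hochberg adjustment, 0 of the 8 passed both thresholds (adjusted p up to 0.05 and a fold of 1.5 or more), and so did 0% of all genes. At an unadjusted p under 0.05, 276 genes of the table and 1 member, Capn11, were counted. If the table is the paper's list, this fit did not return the authors' calls, and the reason was not tested.

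Capn11 had 0.60, 0.33 and 0 FPKM in the Ctrl and 0, 0.02 and 0 FPKM in the Akk blood libraries, a log2 difference of -1.55 (SE 0.53, limma unadjusted p = 0.00319, adjusted p = 0.487). It was lower in the Akk mean in both tissues, but in blood Ctrl 3 was at 0 like Akk 1 and Akk 3. Without Ctrl 3 the limma adjusted p was 0.0340 with a log2 difference of -2.37, in a fit where 23 of the 8003 genes were called, all lower, 1610 had an unadjusted p under 0.05 and the median log2 difference of the table was -1.32. The zinc finger pair was near 0 in blood, with Gm14434 at 0, 0.11 and 0.01 FPKM in the Ctrl and 0.04, 0 and 0 FPKM in the Akk libraries. Gm4724 had 0.25, 0 and 0 FPKM in the Ctrl and 0.03, 0 and 0 FPKM in the Akk blood libraries. The high hippocampal values of the pair were thus not seen in the blood of the same Akk mice. Of the other identical copies only Gm14308 was listed in blood, at 0 FPKM in every Akk library. Reads assigned to unlisted copies would not be seen here. Of the family list, 9 genes were listed in blood, where Zfp972 was the highest with 9.09, 1.70 and 1.18 FPKM in the Ctrl and 1.39, 1.09 and 1.07 FPKM in the Akk libraries.

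The leukocyte genes were higher in Ctrl 1 blood than in any other library. Klhl6 had 9.08, 2.21 and 1.5 FPKM in the Ctrl and 1.68, 0.78 and 1.00 FPKM in the Akk blood libraries, a log2 difference of -1.43 (SE 0.93, limma adjusted p = 0.487). Evi2b had 17.77, 2.33 and 1.48 FPKM in the Ctrl and 1.78, 0.86 and 1.46 FPKM in the Akk blood libraries, a log2 difference of -1.54 (SE 0.93, limma adjusted p = 0.487). For neither gene did the Ctrl and Akk groups separate, and on the log2 scale the range among control mice exceeded the difference between groups. Arhgap9 had 10.04, 2.88 and 1.21 FPKM in the Ctrl and 2.07, 1.28 and 1.58 FPKM in the Akk blood libraries. Hlx had 5.82, 0.47 and 0.69 FPKM in the Ctrl and 0.36, 0.81 and 0.73 FPKM in the Akk blood libraries. Hist1h2ap, higher in the Akk hippocampus, had 17.74, 5.80 and 5.23 FPKM in the Ctrl and 3.18, 5.31 and 2.45 FPKM in the Akk blood libraries, a log2 difference of -1.21 (SE 0.94, limma adjusted p = 0.487). All 8 members had a lower mean log2 value in Akk blood, where the median log2 difference of the whole table was -0.87. If the table is the paper's list of genes that differ in blood, nearly all lower, this direction was nearly fixed beforehand. After median centring of the libraries 6 of the 8 were lower, and after quantile normalization 5 were. Of the 8, 7 were highest in Ctrl 1, in which the median FPKM of the blood table was 1.41 against 0.180 to 0.350 in the other 5 libraries.

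**Figure D5:**
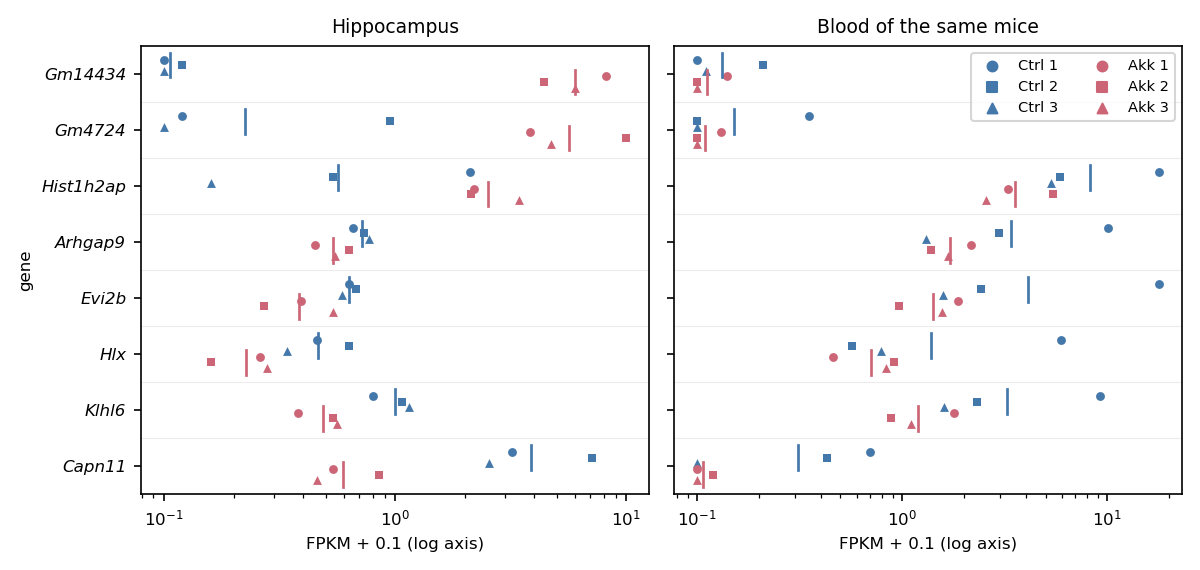
FPKM + 0.1 (log axes) of the 8 members listed in both tables, in the hippocampus (left) and the blood (right) of the same mice, with 1 point per library (blue, Ctrl; red, Akk; symbols for mice 1, 2 and 3) and a tick at the group mean on the log scale. The groups are apart in every row on the left, by which the genes were chosen, and overlap in every row on the right, where Ctrl 1 is the highest library for 7 of 8 genes.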

How the data were processed

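RNA of hippocampus and blood from 3 Ctrl and 3 Akk mice was sequenced on the BGISEQ-500 after oligo(dT) selection. Per the methods, the authors mapped reads with HISAT2 and Bowtie2 and estimated expression with RSEM, whereas the submitters' processing notes name TopHat2, Cufflinks and GRCm38. The authors deposited FPKM rounded to 2 decimals, in a table of 284 hippocampal and one of 8003 blood genes. Both are selections of genes, so percentages of a table do not describe the transcriptome. A gene absent from a table may still be expressed in that tissue. Read counts could not be recovered.

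No scaling was applied. Members followed the no-overlap rule in Python 3.11.15 (pandas 2.3.3, numpy 2.4.6, matplotlib 3.10.9), and differences were taken on log2(FPKM + 0.1). Members in blood were tested in R 4.3.3 by limma 3.58.1 (variance trend on mean level), fitted over all 8003 genes. It was also run on simulated data with independent noise per gene, without the library-wide shifts or possible gene selection of the blood data. That run does not show how the fit performs on these data. The smallest p of an exact permutation test with 3 against 3 is 0.1. Coordinates and promoters came from RefSeq GRCm38.p6. Near-identical genes were found among GENCODE transcripts with blastn 2.17.0 (at least 95% identity over 50% of the transcript on the same strand). Members, marker lists and family lists were chosen with earlier results of these data known. All other members may be named, those with the largest differences in each direction or on a list with every value. Others are named where a list, a near-identical gene or the edge of the rule calls for it. The values of 1 member are not reported here. The authors' tests, and other measurements of the study, were not analysed here.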

Additional observations from a re-analysis of the deposited data

How the results depend on the processing

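Requiring a gap of at least 0.05 FPKM left 12 higher and 9 lower members, and a mean of at least 1 FPKM left 4 and 2. The median log2 difference of higher members was 0.34 with a pseudocount of 1 and 2.14 with 0.01, and that of lower members -0.23 and -1.32. With a pseudocount of 1, 5 higher and 3 lower members reached a fold of 1.5, against 19 and 15. These shifts follow from the low FPKM of the members. Centring and quantile normalization gave 15 and 20 higher and 14 and 13 lower genes without overlap, including genes that are no members. Leaving out 1 library moved the medians between 1.16 and 1.28 and between -0.95 and -0.68, and leaving out Ctrl 1 and Akk 2 together, an alternative chosen after seeing the data, gave 1.17 and -0.78. The rule used all 6 libraries, which fixes these directions.

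In blood, the number of members called by limma ran from 0 to 1 when 1 library was left out, with Capn11 called without Ctrl 3, a fit that called 23 of 8003 genes, all lower, against 0 with all libraries. Directions in blood turned for 4 members, and the cause was not tested. The log2 difference of Gm4724 was 0.44 centred, 0.041 with quantile normalization, and between -0.78 and 0.13 with 1 library left out. That of Gm14434 was 0.67 centred and between -0.44 and 0.093 with 1 library left out. That of Hlx was 0.071 with quantile normalization and between -1.62 and 0.067 with 1 library left out, and that of Arhgap9 was 0.16 with quantile normalization. Centred and without Ctrl 1, chosen after seeing the data, Gm4724, Arhgap9 and Hlx were at 0.38, 0.045 and 0.32. The replicate numbers name different mice in the Ctrl and Akk groups, so they do not pair samples of the same animal. Deviations of same-numbered libraries correlated between -0.096 and 0.036 in blood and between -0.325 and 0.140 in the hippocampus. Whether same-numbered libraries shared a batch was not tested. With the replicate number as a block, 0 members and 1 gene of the table were called, against 0 and 0 without it. The number of mice and the unknown read depth limit all of these values, and most of all those near 0 FPKM.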
